A study of Mus musculus with 6 samples.

Results

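The B7 ligands are cell-surface proteins through which antigen-presenting cells give T cells a second signal beside the antigen itself. The 8 genes described here were chosen by name: Cd80, Cd86, Cd83, Icosl, Cd274, Pdcd1lg2, Cd276 and Vtcn1. All 8 were found on the array among its 27600 genes, on 11 probes. Of these, 7 could be tested between the groups, and the remaining member, Vtcn1, was not well above background on any of the 6 arrays.

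The study compared epithelial cells sorted from 2 organs of C57BL/6 mice. The group called ThymusEC held cells of the thymic medulla that were Epcam+ UEA1+ CD45- Fluorogold-, where UEA1 is a lectin that binds mature medullary cells and Fluorogold marks dead cells. Its replicates 1 and 2 were each pooled from 6 thymi and replicate 3 from 2 thymi. The group called ThyroidEC held Epcam+ CD45- Fluorogold- cells of the thyroid, each replicate pooled from 20 thyroids, and no lectin was part of that gate. Each replicate was hybridised to 1 single-colour Agilent array, so there were 3 arrays per group, and the labels name neither an age nor a treatment. The submitters describe the replicates as independent. P-values here measure the spread between these pooled preparations, and 3 arrays per group limit the precision.

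CD80 and CD86 bind CD28 on T cells, which costimulates them, and CTLA-4, which restrains them. PD-L1 (encoded by Cd274) and PD-L2 (Pdcd1lg2) bind the inhibitory receptor PD-1, and ICOS ligand (Icosl) binds ICOS. In the thymic medulla these ligands are known for their part in removing self-reactive T cells and in making regulatory T cells, while PD-L1 in peripheral tissues restrains T cells that have left the thymus.

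Cd80, Cd86 and Icosl were each read by a pair of probes at separate places in the transcript. The upstream probe of each pair is shown because it bears on whether the difference holds at a second site of the gene. The array's annotation places the Cd80 probe at chr16:38393393-38393452 on the plus strand, the Cd86 probe at chr16:36534534-36534593 on the minus strand, and the Icosl probe at chr10:77474943-77475002 on the plus strand (build mm8). Exons were not analysed here. The sequences are given in lower case, 5′ to 3′.
Cd80, from transcript base 583: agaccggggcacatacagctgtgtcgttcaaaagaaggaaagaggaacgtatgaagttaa
Cd86, from transcript base 789: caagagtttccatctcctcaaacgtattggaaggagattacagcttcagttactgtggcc
Icosl, from transcript base 363: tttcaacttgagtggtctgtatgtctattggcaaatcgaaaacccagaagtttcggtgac

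Levels below are log2 of the processed signal after subtracting each array's 75th percentile, so that 0 is the brightness of that array's 75th percentile probe. Levels of different genes come from different probes and are not set against each other. Differences are ThymusEC minus ThyroidEC on that log2 scale, with the 95% interval and the adjusted p from limma, Benjamini-Hochberg adjusted over all 21398 genes tested. Testing required a probe to clear the background threshold on every array of ThymusEC, of ThyroidEC or of both. Cd83, Icosl and Cd274 met this in both groups, and all 3 were called higher in ThymusEC at adjusted p under 0.05. Cd80, Cd86, Pdcd1lg2 and Cd276 met it in ThymusEC alone and were also called higher there, but a gene that enters through 1 group could hardly be called in the other direction. The total of 7 called is therefore given as a description only. The same limit holds for the counts and medians over the gene lists below, which are read beside the shares over all genes tested. Among all genes tested, 39.3% were called higher in ThymusEC and 30.4% higher in ThyroidEC, or 69.7% in either direction. The median difference of the 7 was 4.56, beside 0.10 over all genes tested, and depends on the filter in the same way. Of the members, 4 passed the threshold with a difference of 16-fold or more (Cd80, Pdcd1lg2, Cd86 and Icosl), which 8.67% of all genes did. That count also depends on the filter, since Cd80, Pdcd1lg2 and Cd86 entered through ThymusEC alone, with ThyroidEC signal at background. With the normexp background correction described below, Pdcd1lg2 and Cd86 differed by 3.53 and 1.86, less than 16-fold. In all 7 tested members the arrays of the groups did not overlap, with ThymusEC higher, as was so in 42.1% of all genes (76.4% in either direction). The filter bears on this count too. In sorted bulk cells, fewer cells carrying a transcript and less transcript per cell cannot be told apart.

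**Figure D1:**
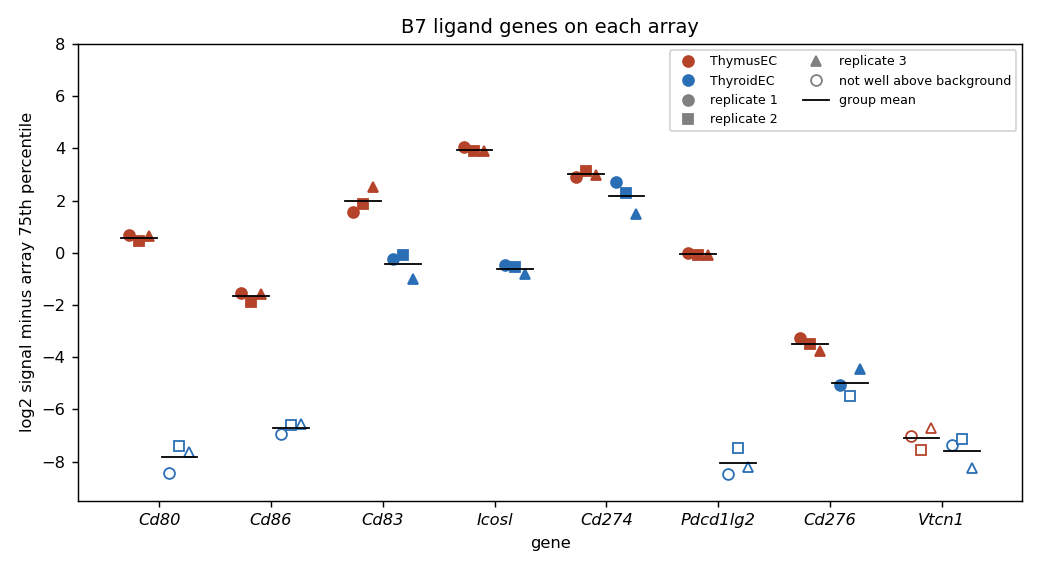
Level of each B7 ligand gene (log2 signal minus the array's 75th percentile, vertical axis) on the 3 ThymusEC arrays (red) and the 3 ThyroidEC arrays (blue), with a symbol per replicate, a line at each group mean and open symbols where the probe was not well above background. The ThyroidEC points of Cd80, Cd86 and Pdcd1lg2 are all open, those of Icosl and Cd274 are all filled, and the groups overlap in Vtcn1 alone.

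The costimulators CD80 and CD86 were measured in the thymic cells and not above background in the thyroid cells. Cd80 stood at 0.67, 0.44 and 0.63 in ThymusEC replicates 1 to 3, and at -8.42, -7.42 and -7.64 in ThyroidEC replicates 1 to 3. The ThymusEC arrays were close together (mean 0.58 ± 0.12, SD, n = 3) and far above every ThyroidEC array (mean -7.82 ± 0.53, SD, n = 3). The unscaled Cd80 signals were 1149, 892 and 981 in ThymusEC against 2.22, 2.61 and 3.37 in ThyroidEC, where no array was well above background. On this scale Cd80 was therefore at least 94.4-fold higher in ThymusEC. The bound sets each ThyroidEC array at its lowest signal, over all probes, that counts as well above background. Later bounds are made in the same way, with an array's own signal where that was higher, and hold for this processing only. The measured Cd80 difference was 8.40 (95% interval 7.78 to 9.03, limma adjusted p = 8.70e-07), in which the ThyroidEC side is signal at background.

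The upstream Cd80 probe shown above gave a difference of 8.15, or at least 75.5-fold (limma over all probes tested, adjusted p = 9.33e-07). Its levels were 0.23, 0.22 and 0.31 in ThymusEC and -8.13, -7.26 and -8.30 in ThyroidEC. The 2 Cd80 probes lie 21454 bases apart on the chromosome, and their differences were 0.25 apart. Over all probes tested, 37.3% were called higher in ThymusEC.

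Cd86, the other ligand of CD28 and CTLA-4, stood at -1.54, -1.89 and -1.58 in ThymusEC. In ThyroidEC it stood at -6.92, -6.60 and -6.56. No ThyroidEC array was well above background, and the 2 groups were each tight, with SDs of 0.19 and 0.20 (n = 3 each). Cd86 was at least 19.9-fold higher in ThymusEC, and the measured difference was 5.03 (4.65 to 5.40, limma adjusted p = 8.75e-07). Its upstream probe, 10875 bases away on the chromosome, gave 4.68 or at least 14.7-fold (adjusted p = 1.69e-05 over all probes).

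CD83, an immunoglobulin-family protein of mature antigen-presenting cells, is known to protect MHC class II and CD86 from removal from the cell surface. Cd83 stood at 1.58, 1.85 and 2.53 in ThymusEC and at -0.24, -0.08 and -1.01 in ThyroidEC. Unlike Cd80 and Cd86, it was well above background on all 6 arrays, with signals of 2155, 2378 and 3679 in ThymusEC and 646, 421 and 333 in ThyroidEC. The SDs were 0.49 and 0.50 (n = 3 each), replicate 3 being the highest in ThymusEC and the lowest in ThyroidEC. The groups stayed apart, and Cd83 was 5.39-fold higher in ThymusEC (difference 2.43, 1.64 to 3.22, limma adjusted p = 0.000559).

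ICOS ligand, the partner of ICOS on activated and regulatory T cells, was measured in both organs. Icosl stood at 4.05, 3.91 and 3.89 in ThymusEC and at -0.48, -0.53 and -0.81 in ThyroidEC. The signals were 11974, 9891 and 9430.25 in ThymusEC and 546, 309.5 and 382 in ThyroidEC, all well above background. Both groups were narrow (SD 0.09 and 0.18, n = 3 each), and Icosl was 23.5-fold higher in ThymusEC (difference 4.56, 4.25 to 4.87, limma adjusted p = 7.15e-07). The upstream probe shown above, 7652 bases away on the chromosome, was also above background on all 6 arrays and gave a 29.3-fold difference (4.88, adjusted p = 3.42e-06 over all probes).

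The ligands of the inhibitory receptor PD-1 differed from each other in their pattern. PD-L2 transcript was above background in ThymusEC alone, whereas PD-L1 transcript was measured in both sorted groups at levels that came close. Pdcd1lg2 stood at -0.02, -0.08 and -0.09 in ThymusEC and at -8.47, -7.49 and -8.20 in ThyroidEC. The unscaled signals were 713, 622 and 599 in ThymusEC against 2.14, 2.48 and 2.27 in ThyroidEC, none of the latter well above background. Pdcd1lg2 was at least 60.6-fold higher in ThymusEC (measured difference 7.99, 7.40 to 8.59, limma adjusted p = 8.69e-07).

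Cd274 stood at 2.91, 3.13 and 2.98 in ThymusEC and at 2.72, 2.30 and 1.48 in ThyroidEC. Its signals were 5431, 5748 and 5019 in ThymusEC and 5008, 2191 and 1871 in ThyroidEC, well above background everywhere. The thymic arrays lay close together (SD 0.11, n = 3) and the thyroid arrays spread over more than 1 log2 unit (SD 0.63, n = 3). The highest ThyroidEC array, replicate 1, lay just below the lowest ThymusEC array. The difference was 0.84 (0.11 to 1.57), or 1.79-fold, just past the threshold (limma adjusted p = 0.0429).

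The Cd274 call depended on the processing and on single arrays. ThyroidEC replicate 1 was on the same slide as all 3 ThymusEC arrays, and ThyroidEC replicates 2 and 3 were on another slide. Within the first slide the Cd274 difference was 0.29. ThyroidEC has 1 array there, so that value is given without a test. With the slide as a block the estimate was the same (limma adjusted p = 0.473), since the other slide holds ThyroidEC arrays only. Centring each array on its median in place of the 75th percentile gave 0.31 (adjusted p = 0.394). Leaving out any 1 ThymusEC array, or ThyroidEC replicate 2, ended the call (differences 0.89, 0.78, 0.85 and 0.91, adjusted p = 0.0824, 0.113, 0.0946 and 0.0648). Without ThyroidEC replicate 3, the lowest array, the difference was 0.50 and without replicate 1, the highest, it was 1.12, both past the threshold. Cd274 was positive under all 18 other settings tried and past the threshold in 9 of them. These settings are not independent. The slide block and the first slide give the same estimate, and the deposited value table is median-centred too.

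The other tested members were also higher in ThymusEC within the shared slide, where the 3 ThymusEC arrays were set against ThyroidEC replicate 1. These were 8.996 for Cd80, 8.41 for Pdcd1lg2, 5.26 for Cd86, 4.43 for Icosl, 2.22 for Cd83 and 1.55 for Cd276. With 1 ThyroidEC array in this comparison, the values are given without a test.

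B7-H3 (Cd276) and B7-H4 (Vtcn1) are family members whose T-cell receptors are less well settled than those of the classical ligands. Cd276 stood at -3.25, -3.50 and -3.78 in ThymusEC and at -5.06, -5.48 and -4.43 in ThyroidEC. It was dim, with signals of 75.7, 58.1 and 46.5 in ThymusEC against 22.8, 10.02 and 31.1 in ThyroidEC, where 2 of 3 arrays were well above background. The groups did not overlap, and Cd276 was 2.79-fold higher in ThymusEC (difference 1.48, 0.81 to 2.15, limma adjusted p = 0.00295). Quantile normalization lowered the difference to 0.53 and ended the call (adjusted p = 0.113). Median centring gave 0.95 and the normexp background correction, with an offset of 50 added to each signal, gave 0.39. Both were past the threshold (limma adjusted p = 0.0183 and 0.0355).

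Vtcn1 stood at -7.03, -7.57 and -6.71 in ThymusEC and at -7.35, -7.15 and -8.26 in ThyroidEC. The groups overlapped. With signals of 5.53, 3.46 and 6.07 in ThymusEC and 4.67, 3.15 and 2.19 in ThyroidEC, B7-H4 transcript was not detectable on these arrays, and no fold is given.

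**Figure D2:**
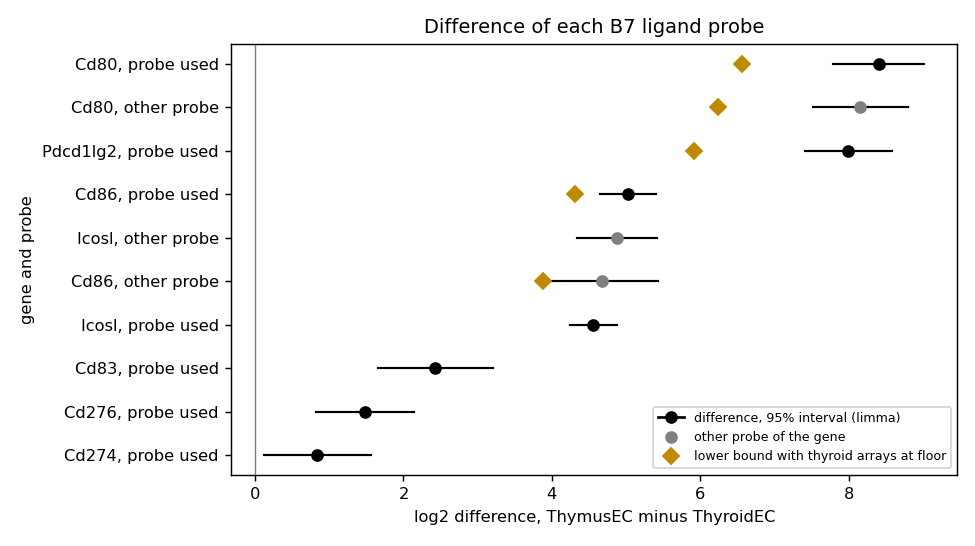
Difference of each of the 10 tested B7 ligand probes (log2, ThymusEC minus ThyroidEC, horizontal axis) with its 95% limma interval from the fit over all probes, black for the probe that stands for the gene and grey for the other probe; diamonds mark the lower bound where no ThyroidEC array was well above background. Both Cd80 probes and Pdcd1lg2 lie near 8, both probes each of Cd86 and Icosl lie between 4.56 and 5.03, and Cd274 lies closest to 0.

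By measured difference the order was Cd80, Pdcd1lg2, Cd86, Icosl, Cd83, Cd276 and Cd274. The intervals of Cd80 and Pdcd1lg2 overlapped, and so did those of Cd86 and Icosl, of Cd83 and Cd276, and of Cd276 and Cd274. The intervals of Pdcd1lg2 and Cd86 did not overlap, nor did those of Icosl and Cd83. For Cd80, Cd86 and Pdcd1lg2 the size rests on ThyroidEC signals at background, so this order was not stable. A normexp background correction adds an offset, here 50, to each signal, which shrinks differences between dim signals. With it the differences of Cd80, Cd86 and Pdcd1lg2 became 4.05, 1.86 and 3.53, still past the threshold (limma adjusted p at most 8.44e-06). Those of Icosl and Cd83, measured in both groups, were 4.32 and 2.36. Icosl then came first and Cd86 after Cd83.

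**Figure D3:**
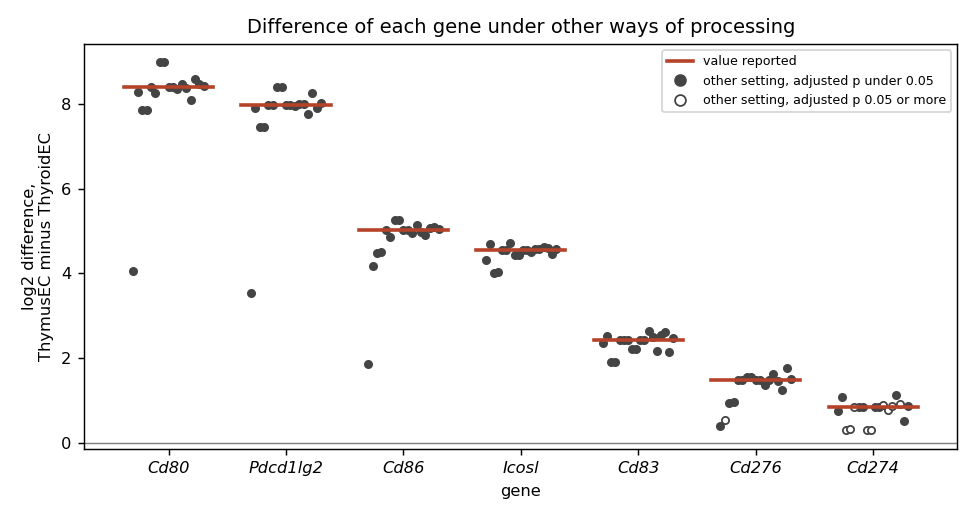
Difference of each tested B7 ligand gene (log2, ThymusEC minus ThyroidEC, vertical axis) as reported (red line) and under each of the other settings that could give a value (points, open where the adjusted p was 0.05 or more). No point lies below 0; open points occur for Cd274 (9 settings) and Cd276 (quantile normalization), and the lowest points of Cd80, Cd86 and Pdcd1lg2 are those of the normexp background correction.

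Of 4 genes for the receptors that T cells use for these ligands, 3 could be tested and all 3 were called higher in ThymusEC, with a median difference of 3.31. Only Icos was above background in both groups, while Pdcd1 and Cd28 were tested through their ThymusEC arrays alone. Pdcd1, encoding PD-1, was at least 5.23-fold higher (limma adjusted p = 0.00182) and Cd28 at least 1.47-fold (adjusted p = 0.000193). Icos was measured on all 6 arrays and was 9.93-fold higher (adjusted p = 3.19e-06). Ctla4 was well above background on 1 ThymusEC array only and was not tested. Of 5 tested genes for other inhibitory and activating T-cell receptors, 4 were called higher in ThymusEC, including Cd244a (at least 9.96-fold), Cd96 (1 of 3 ThyroidEC arrays well above background, so no fold is given) and Havcr2 (TIM-3, at least 3.85-fold). All of the called genes, Btla among them, were tested through their ThymusEC arrays alone, so this count is a description only. Most T-cell markers moved with these receptors: 11 of 13 tested thymocyte and T-cell markers were higher in ThymusEC and 1 was higher in ThyroidEC. Ptprc, encoding CD45, was also higher in ThymusEC, and the part of such cells in the receptor values was not tested.

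Other immunoglobulin-family ligands of T cells were divided between the organs. Of 11 tested, 5 were called higher in ThymusEC and 4 in ThyroidEC, with a median difference of 0.07. Btnl1, a butyrophilin-like gene, was at least 93.3-fold higher in ThymusEC (limma adjusted p = 3.57e-07), with Btnl10 and Btn2a2 at least 2.63-fold and 1.06-fold. In the other direction, Btnl9 stood at 4.55, 4.68 and 4.49 in ThyroidEC and at -5.88, -6.80 and -6.87 in ThymusEC, where 1 array was well above background. Cd200, encoding the ligand of an inhibitory myeloid receptor, was 17.8-fold higher in ThyroidEC, and Pvr, a ligand of TIGIT and CD96, was 7.66-fold higher there.

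Most TNF-family costimulatory ligands and receptors were higher in ThymusEC. Of 9 tested, 8 were called higher in ThymusEC and none in ThyroidEC, with a median difference of 2.31. Over all genes tested, 39.3% were called higher in ThymusEC. Tnfsf4, Tnfsf8, Tnfsf14 and Tnfsf15 were tested through their ThymusEC arrays alone and could hardly be called the other way. The other called genes, Cd40, Cd70, Tnfsf9 and Tnfrsf14, were well above background on every array. Cd40, which is also on the list of medullary markers, encodes a receptor through which T cells activate antigen-presenting cells. Cd40 stood at 1.42, 1.44 and 1.37 in ThymusEC and at -0.95, -0.61 and -0.30 in ThyroidEC, 4.10-fold apart (limma adjusted p = 6.03e-05). Tnfsf14 (LIGHT), Tnfsf15 and Tnfsf8 (CD30 ligand) were at least 8.99-fold, 7.13-fold and 3.07-fold higher in ThymusEC.

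Genes for partners and surface turnover of these ligands mostly did not pass the test. Of 9 tested, 1 was called higher in ThymusEC and 2 in ThyroidEC, with a median difference of 0.00. Cmtm6, which keeps PD-L1 at the cell surface, differed by 0.07 (limma adjusted p = 0.657), and Rgmb, a binding partner of PD-L2, by 0.14 (adjusted p = 0.362). Marchf1 and Marchf8 encode ubiquitin ligases that remove MHC class II and CD86 from the cell surface. Marchf1 was at least 12.2-fold higher in ThymusEC (adjusted p = 2.54e-06), whereas Marchf8 was 1.83-fold higher in ThyroidEC (adjusted p = 0.000804), as was Stub1, a ubiquitin ligase gene, at 1.62-fold. With median centring, which shifts all differences by -0.54 at the median, 8 of the 9 were called higher in ThyroidEC.

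Interferon gamma, a known inducer of PD-L1, acts through the receptor chains Ifngr1 and Ifngr2 and the kinases Jak1 and Jak2. Of 7 tested genes of this pathway, 2 were called higher in ThymusEC and 3 in ThyroidEC, with a median difference that rounded to 0.00. Ifngr2 was 2.32-fold higher in ThymusEC, while Irf1, Ifngr1 and Jak1 were 2.36-fold, 1.82-fold and 1.49-fold higher in ThyroidEC. With median centring these counts became 1 and 4. Irf1, a transcription factor that binds the Cd274 promoter region in other cells, stood at 5.13, 5.73 and 5.49 in ThymusEC and at 6.87, 6.89 and 6.29 in ThyroidEC, the opposite order to Cd274.

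The NF-kB subunits and kinases, whose alternative arm is needed for mature medullary epithelium, were called higher in ThymusEC in 6 of 9 tested and higher in ThyroidEC in 2. The median difference was 0.98. Nfkb2 and Relb, the subunits of the alternative arm, were 3.80-fold and 3.45-fold higher in ThymusEC (limma adjusted p = 6.22e-06 and 7.09e-06), and Rel was 3.72-fold higher, with 2 of 3 ThyroidEC arrays well above background. Genes of the canonical arm were divided: Rela and Ikbkg were 1.51-fold and 1.72-fold higher in ThyroidEC, whereas Ikbkb and Nfkb1, named after their values were seen, were 2.06-fold and 1.45-fold higher in ThymusEC. MHC class II, which presents the antigen that accompanies the B7 signal, was called higher in ThymusEC in 9 of 9 tested genes, with a median difference of 6.31. Ciita, its master regulator, was 130.2-fold higher, and H2-Oa and H2-Eb1 were 317-fold and 101-fold higher.

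**Figure D4:**
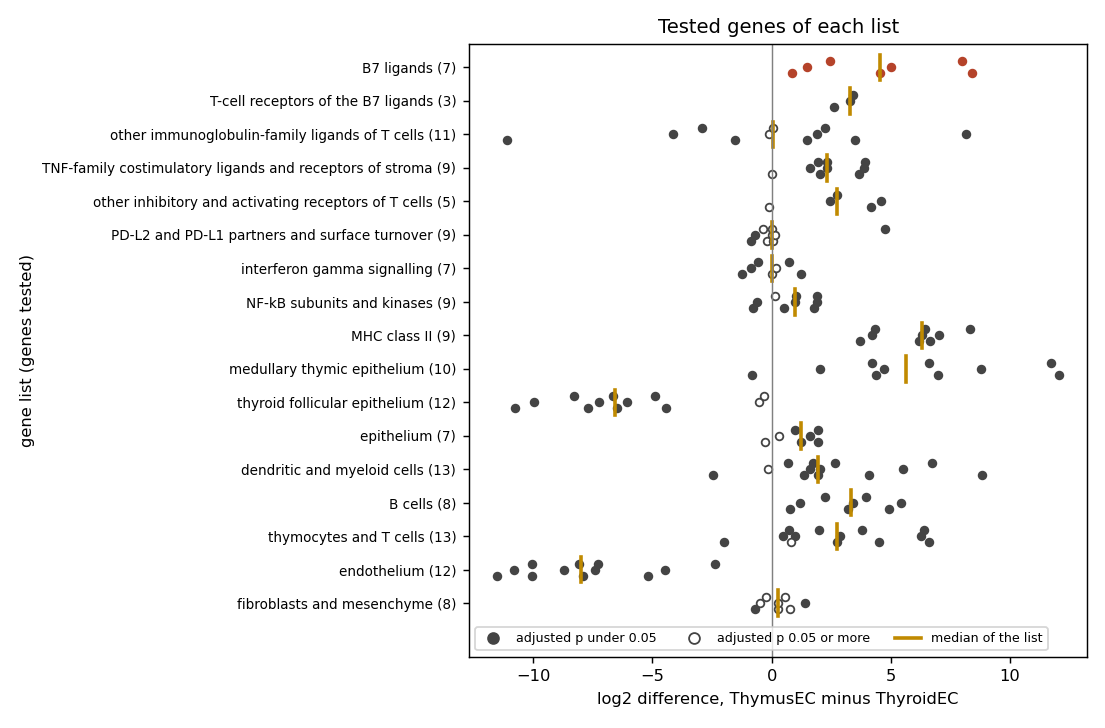
Difference of every tested gene (points; log2, ThymusEC minus ThyroidEC, horizontal axis) in the B7 ligands (red), the related pathways and the cell type markers, filled where the limma adjusted p was under 0.05, with the median of each list as a gold line and the number of genes tested in brackets. The 7 tested B7 ligands, the 9 MHC class II genes and the 8 B-cell markers lie to the right of 0, the 12 endothelial genes lie to the left, and the interferon gamma genes lie on both sides.

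Promoter sequence was examined as a property the choice of genes did not use. The RefSeq table (GRCm38.p6) held promoters of 6 members, without Cd83 and Cd86, and the 250 bases before each start were searched on both strands for 3 patterns. The kappa-B-like pattern, GGGA and CC with any 4 bases between them, was present in 17.6% of the 32851 promoters in the table. The interferon-stimulated element, GAAA and GAAA with any 2 bases between them, was present in 2.98%, and the gamma-activated site, TTC and GAA with any 3 bases between them, in 7.02%. Among the 6 members, Cd80, Icosl and Pdcd1lg2 held a kappa-B-like match, and no member held either of the others in this window. The Cd80 match began 210 bases before the start, the Icosl match 71 bases and the Pdcd1lg2 match 244 bases before it, the last on the opposite strand. A match describes the letters and not a bound site.

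The sequences of Cd80 and Pdcd1lg2, the members with the largest differences, and of Cd274, the member with the smallest, are shown 5′ to 3′ on the strand of the gene, with the kappa-B-like match in capitals. They lie at chr16:38458683-38458932, chr19:29410669-29410918 and chr19:29367188-29367437, all on the plus strand of GRCm38.p6.
Cd80: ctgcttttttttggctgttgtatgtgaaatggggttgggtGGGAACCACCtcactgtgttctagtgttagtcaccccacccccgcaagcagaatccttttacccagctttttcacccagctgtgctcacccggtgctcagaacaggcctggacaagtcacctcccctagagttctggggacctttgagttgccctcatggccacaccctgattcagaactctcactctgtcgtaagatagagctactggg
Pdcd1lg2: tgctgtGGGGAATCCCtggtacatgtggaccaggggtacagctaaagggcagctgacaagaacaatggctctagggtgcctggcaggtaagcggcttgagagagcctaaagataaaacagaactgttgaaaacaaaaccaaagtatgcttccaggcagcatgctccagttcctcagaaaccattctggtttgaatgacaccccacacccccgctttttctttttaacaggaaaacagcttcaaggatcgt
Cd274: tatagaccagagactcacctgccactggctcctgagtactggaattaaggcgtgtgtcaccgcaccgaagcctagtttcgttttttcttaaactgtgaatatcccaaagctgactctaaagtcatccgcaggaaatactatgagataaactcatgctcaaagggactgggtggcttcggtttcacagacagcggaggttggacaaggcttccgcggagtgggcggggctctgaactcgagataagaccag

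Cd274 and Pdcd1lg2 are direct neighbours among the protein-coding genes of chromosome 19, yet their differences were 0.84 and 7.99, and their intervals did not overlap. On their outer sides, Plgrkt differed by 1.46 (limma adjusted p = 0.000110) and Ric1 by 0.03 (adjusted p = 0.819). Icosl lies on chromosome 10 next to Dnmt3l, which is followed by Aire, the gene for the regulator that lets medullary cells express tissue antigens. Aire, Dnmt3l and Icosl differed by 12.08, 6.54 and 4.56, all higher in ThymusEC. The next genes on the far side, Gatd3a and Pwp2, differed by 0.04 and -0.08 and did not pass the test (adjusted p = 0.720 and 0.651). Around Cd80, the adjoining Adprh differed by -0.12 (adjusted p = 0.372) and Timmdc1 by 0.39 (adjusted p = 0.0480). A further Timmdc1 probe, 3363 bases from a Cd80 probe, differed by -0.13 (limma over all probes, adjusted p = 0.402).

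**Figure D5:**
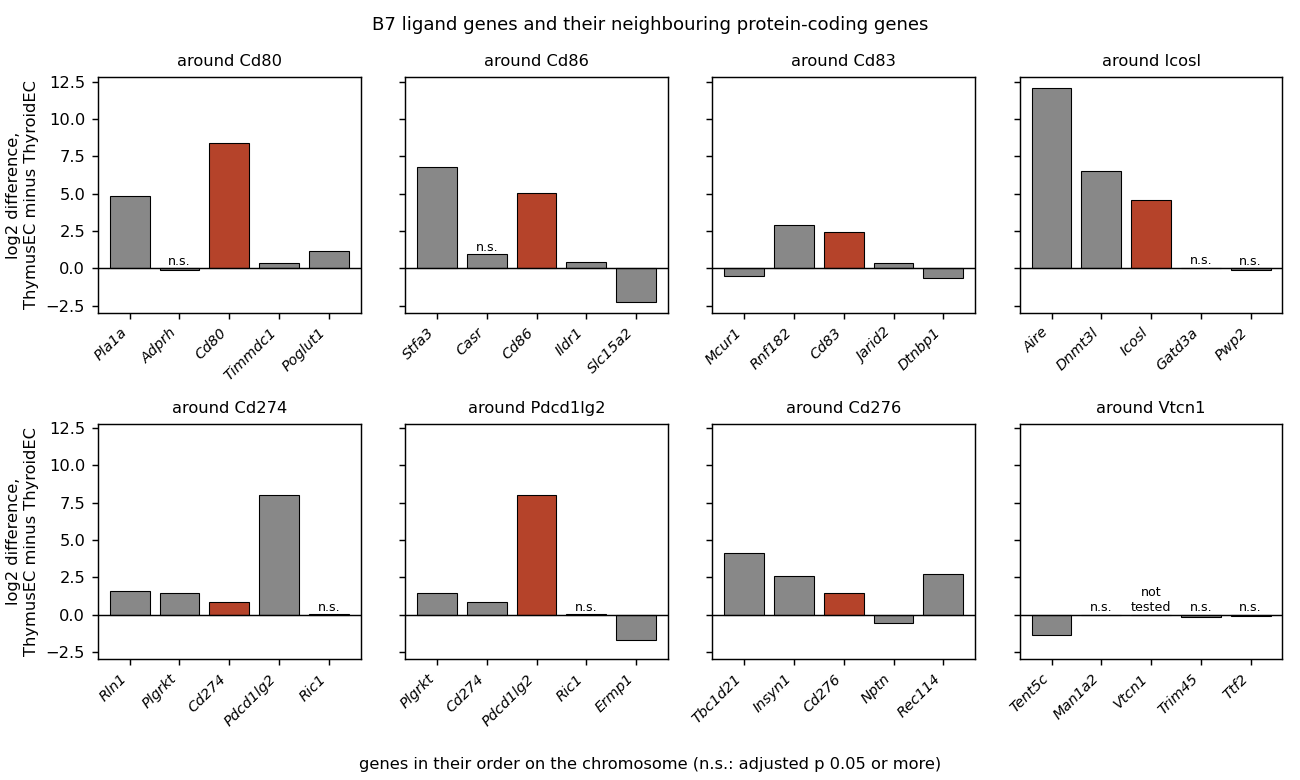
Difference (log2, ThymusEC minus ThyroidEC, vertical axis) of each B7 ligand gene (red) and of the 2 nearest protein-coding genes on either side (grey), in their RefSeq order, with n.s. where the limma adjusted p was 0.05 or more. Pdcd1lg2 at 7.99 stands beside Cd274 at 0.84, and Icosl stands next to Dnmt3l and Aire and, on its other side, 2 genes near 0.

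For each tested member, the genes nearest in profile were those with the smallest root mean square distance between profiles over the 6 arrays, each centred on its own mean. For Cd80, Cd86 and Pdcd1lg2 the ThyroidEC side of the profile is signal at background, so their distances rest in part on background signal. Icosl was nearest to Mmel1 (distance 0.04) and Pcdh7 (0.08), and Cd86 to Tac2 (0.08) and Tspan10 (0.10). For Cd80 Mucl2 was nearest (0.09), for Pdcd1lg2 Guca2b (0.15) and Adh6a (0.17) were, and for Cd83 Lrguk (0.19) and Dlx4 (0.20). Cd274 was nearest to Sgpp2 (0.06) and Ly6f (0.10), and Cd276 to Kcnj6 (0.13) and Izumo4 (0.15). No member was the nearest profile of another, since other members were left out of the search.

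The groups carried their labels' markers, and ThyroidEC carried endothelial markers as well, given below. Aire stood at 6.13 on average in ThymusEC and at -5.95 in ThyroidEC, and Tg, encoding thyroglobulin, at -1.74 and 9.04. The medullary markers were called higher in ThymusEC in 9 of 10 tested genes and the thyroid follicular markers higher in ThyroidEC in 10 of 12. Of 7 general epithelial markers, 5 were higher in ThymusEC, among them Epcam, at 2.36-fold. Between 65.4% and 81.0% of probes were well above background, the 3 ThyroidEC arrays having the lowest shares. ThyroidEC replicate 2 was the dimmest array.

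Markers of blood cells moved with the B7 ligands, although CD45+ cells were gated out of both groups. Ptprc, encoding CD45, was 16.6-fold higher in ThymusEC (limma adjusted p = 1.07e-05) and was measured on all 6 arrays. Of 16 dendritic and myeloid markers, 13 could be tested and 11 were higher in ThymusEC, with 1 higher in ThyroidEC. Their summed level, in multiples of each array's 75th percentile signal, was 106 to 115 in ThymusEC and 3.38 to 5.16 in ThyroidEC, and in ThymusEC most of it came from Lyz2 (107-fold higher in ThymusEC). Ccr7 was at least 115-fold higher and Itgax 4.04-fold higher. The defining markers Clec9a, Siglech and Spi1 were not well above background on any array.

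All 8 B-cell markers were higher in ThymusEC, with sums of 6.69 to 7.48 against 1.57 to 2.83. Of 14 thymocyte and T-cell markers, 11 of 13 tested were higher in ThymusEC, with sums of 2.93 to 5.34 against 1.97 to 2.10. Their median difference was 2.73. Cd3e was 1.38-fold higher, while Cd8a and Rag1, named after their values were seen, were at least 31.7-fold and 20.3-fold higher. Cd8b1, also named after its value was seen, was the 1 marker of this list called the other way. It was 3.95-fold higher in ThyroidEC (limma adjusted p = 8.69e-06) and well above background on all 6 arrays. Rag2 was not well above background on any ThymusEC array. The part of these cells in the B7 ligand values, which dendritic and B cells also express, was not tested.

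Endothelial markers went the other way. All 12 were higher in ThyroidEC, with sums of 762 to 1137 against 4.72 to 5.15 in ThymusEC, and Pecam1 differed by -7.28. Across the ThyroidEC arrays the sums were 1096, 1137 and 762 in replicates 1 to 3, where Cd274 stood at 2.72, 2.30 and 1.48. The thyroid follicular markers summed to 612, 802 and 675 on the same arrays, below the endothelial sum on each. Sums over different probes do not measure the shares of cells. Fibroblast markers were called in 1 of 8 genes in each direction, with sums of 33.4 to 49.7 in ThymusEC and 24.7 to 45.5 in ThyroidEC. Endothelium is known to express PD-L1, and the part of these cells in the Cd274 values was not tested. Nor was their part in the values of other genes higher in ThyroidEC, among them Btnl9, Cd200 and Pvr.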

How the data were processed

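RNA of sorted cells was labelled with Cy3 and hybridised to single-colour Agilent arrays (3 ThymusEC, 3 ThyroidEC). Per the file headers, Agilent Feature Extraction version 10.5.1.1 read the scans, and the intensity that the authors deposited as processed signal was background-corrected by it. The probes carry mm8 positions. The deposited value table holds a ratio: dividing the processed signal by its array's median gave each column back, to within 0.99996 to 1, so it is linear and median-centred, and it served as an alternative.

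Control spots and outlier spots were left out, spots averaged per probe on the log2 scale and each array's 75th percentile subtracted, giving 41174 probes. Names followed RefSeq (GRCm38.p6) by accession (24375 probes), symbol (6303) or older symbol (2418); 8078 kept the file's name. Tests took the probes that lay well above background, in at least 50% of their spots, on all 3 arrays of a group. The tested probe with the highest mean stood for a gene. limma 3.58.1 (lmFit, eBayes, two-sided; R 4.3.3) was fitted without covariates and adjusted by Benjamini-Hochberg over all genes, with 0.05 as threshold; the code was tested on simulated data. Python 3.11.15 and matplotlib 3.10.9 made the tables and figures.

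The members, the pathway and marker lists and the tests were chosen with earlier results of these data known. Named from each pathway list were up to 3 called genes per direction with the largest difference, plus fixed genes of interest; from the marker lists fixed genes and the 2 dendritic and myeloid genes with the largest difference; and the 2 nearest profiles per member. A few genes that this rule names are not reported here. The neighbours named were picked after their values were seen, among the 2 genes on each side of every member. Replicate numbers did not pair the samples (correlations of deviations 0.01, -0.07 and -0.06). The alternatives covered background correction, normalization, filter, probe choice, slide, replicate block, variance model and each array left out; a scaling on the median of those probes that were above background everywhere was added after seeing the data. No column was left unused (0).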

Additional observations from a re-analysis of the deposited data

How the results depend on the processing

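Cd80, Cd86, Cd83, Icosl and Pdcd1lg2 kept their direction and their call under every alternative that tested them. Leaving out 1 array at a time gave 8.11 to 8.61 for Cd80, 4.91 to 5.14 for Cd86, 2.15 to 2.64 for Cd83, 4.45 to 4.62 for Icosl, 7.78 to 8.28 for Pdcd1lg2, 1.24 to 1.76 for Cd276 and 0.50 to 1.12 for Cd274, the last with adjusted p from 0.0115 to 0.113. The Cd274 call was also lost when arrays were centred on their median (0.31, adjusted p = 0.394), when the authors' value table was used (0.31, adjusted p = 0.382), without a filter on dim probes (0.84, adjusted p = 0.0644), with the slide as a block and on the first slide alone (0.29, adjusted p = 0.473 and 0.127). The Cd276 call was lost with quantile normalization (0.53, adjusted p = 0.113). With the replicate number as a block, all 7 members stayed called (Cd274: 0.84, adjusted p = 0.0477), with 8051 genes higher in ThymusEC and 5993 in ThyroidEC; the numbers do not pair the samples.

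Testing only probes above background on all 6 arrays left 3 members, Cd83, Icosl and Cd274, all called, and 5036 genes higher in ThymusEC against 8404. Median centring and the value table called 11036 and 10964 genes higher in ThyroidEC against 6513. Of all calls, 56.3% were higher in ThymusEC, against 48.0% with quantile normalization, 35.6% with median centring, 35.8% with the value table and 44.0% when probes had to be above background on every array. The median difference shifted by -0.54, -0.53 and -0.19 with median centring, the value table and quantile normalization. The cause of these shifts was not tested. Signal near background limits the fold of Cd80, Cd86 and Pdcd1lg2 to the lower bounds given, and Vtcn1 to no value. Those bounds hold for the main processing only. With the normexp correction and its offset of 50, the log2 differences were 4.05, 1.86 and 3.53, which lie below the bounds.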

Other observations

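A further probe near Cd274, which the array's annotation places on the opposite strand at chr19:29444919-29444978 (mm8), 8951 bases before the Cd274 probe, did not follow Cd274. It belongs to the cDNA clone AK035678 and was singled out after its values were seen. Its levels were -2.07, -2.55 and -2.20 in ThymusEC and -8.34, -7.39 and -8.61 in ThyroidEC. The signals of AK035678 were 172, 112 and 139 in ThymusEC and 2.35, 2.66 and 1.72 in ThyroidEC, where no array was well above background. AK035678 was at least 13.1-fold higher in ThymusEC (measured difference 5.84, limma over all probes, adjusted p = 6.72e-06), while Cd274 itself was 1.79-fold higher. Whether this clone is a transcript of its own was not tested.

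Other neighbours of the B7 ligands, also picked after seeing their values, showed large differences. Pla1a, the second gene before Cd80, differed by 4.83, and Stfa3, the second before Cd86, by 6.82, both higher in ThymusEC. Ermp1, the second after Pdcd1lg2, differed by -1.70 and Slc15a2, the second after Cd86, by -2.24, both higher in ThyroidEC.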
